A study of Mus musculus with 10 samples.

Results

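Transcripts of 9 genes were examined that encode titin and proteins of the Z-disc, the M-band and the thin filament end of heart muscle: Ttn, Actn2, Myoz2, Ldb3, Nebl, Lmod2, Myom1, Myom2 and Speg. They were chosen by name, with earlier results of these data known, from the 55858 genes of a table of TPM (transcript levels per length, summing to 1000000 in each library) of whole mouse hearts. All 9 were found, and all 9 passed a minimum of 1 TPM in at least 5 of the 10 libraries, together with 13282 genes in all. The cKO group was 5 MCM; Chmp4bF/F mice that were injected under the skin with tamoxifen, 0.1 mg/g, on 2 days in a row from postnatal day 0 (P0). The Ctrl group was 5 MCM; Chmp4bF/F mice that were injected with corn oil. Hearts of both groups were taken at P10. Every mouse thus carried the same alleles, and the effect of tamoxifen itself and that of the deletion cannot be told apart in this design. MCM is given as labelled, and the promoter that drives it is not stated in the labels. The series addresses the part of the ESCRT membrane-remodelling machinery, to which Chmp4b belongs, in forming cardiac T-tubules.

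The sarcomere is the contractile unit of heart muscle, bounded at each end by a Z-disc, where thin actin filaments are anchored and crosslinked. The M-band at its centre crosslinks the thick myosin filaments, and titin spans from the Z-disc to the M-band as an elastic strand. Most of these proteins are made in heart muscle cells and few other cells of the heart, and mutations in several of the human genes cause cardiomyopathy.

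TPM closes each library to a fixed total, and mitochondrially encoded transcripts took 35.5% to 41.5% of it in cKO libraries, against 50.0% to 59.4% in Ctrl libraries. The median gene was 0.63 higher in cKO hearts on the log2 scale of TPM as deposited. Each gene was compared on 3 scales: relative to the median gene (TPM divided by a size factor of each library, called scaled TPM here), as deposited, and relative to 12 other cardiomyocyte genes. Chmp4b stood at 38.2 ± 1.42 TPM in cKO hearts and 47.4 ± 8.61 TPM in Ctrl hearts (SD, n = 5 each), a log2 fall of 1.01 scaled and of 0.29 as deposited (limma adjusted p = 0.034). As deposited its groups overlapped, and relative to the cardiomyocyte genes it differed by -0.08, with a 95% interval from -0.28 to 0.11 (limma adjusted p = 0.396). Relative to the median gene, 7 of 7 cardiomyocyte markers and 8 of 8 endothelial markers fell, while 8 of 8 fibroblast and 9 of 9 macrophage markers rose, where 20.8% of all genes tested moved in each direction. As deposited, 1 cardiomyocyte marker rose and 2 fell, 1 endothelial marker rose, and the fibroblast and macrophage markers all rose, where 76.5% of all genes rose and 3.46% fell. Relative to the cardiomyocyte genes all 8 endothelial markers rose, where 85.6% of all genes did. In whole hearts, fewer cells of a type and less RNA per cell cannot be told apart. Xist reached 47.6 to 65.9 TPM in cKO replicates 1, 5 and 7 and at most 0.12 TPM in the other 7 libraries, so sex-linked expression differed in part with the group, and results that move without these 3 libraries or with Ddx3y as a covariate are given with those values. The labels' numbers of cKO replicates are 1, 3, 5, 6 and 7, those of Ctrl replicates are 4, 6, 8, 9 and 13, and values per library follow that order.

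Relative to the median gene, 7 of the 9 genes fell in cKO hearts (Ttn, Actn2, Myoz2, Ldb3, Nebl, Lmod2 and Myom1), where 20.8% of all genes tested fell at a limma adjusted p under 0.05. None of the 9 rose, at an adjusted or at an unadjusted p, where 20.8% of all genes rose at an adjusted p. Myom2 and Speg were not called, with log2 fold changes of 0.22 and -0.47. The median over the 9 genes was -0.66, against 0.01 over all genes. As deposited, 1 of the 9 rose (Myom2, background 76.5%), 1 fell (Ldb3, background 3.46%) and 7 were not called, with a median of 0.07 against 0.63 over all genes. Relative to the 12 cardiomyocyte genes, Ttn, Actn2, Nebl, Myom1 and Myom2 rose, where 85.6% of all genes rose. None of the 9 fell on this scale at an adjusted or unadjusted p, where 2.12% of all genes fell. The 12 reference genes were not constant themselves, and limma called all 12 lower when set against the median gene. On TPM as deposited, 4 of the 12 were called lower, 2 higher and 6 neither, with a median log2 difference of -0.18. A rise against these 12 genes is thus not by itself a higher level of a gene. The direction of most of the 9 genes thus turned with the scale, and a change held on every scale for none of them. When the mitochondrially encoded genes were left out and the remaining TPM closed again, without size factors, 5 of the 9 genes stayed lower. Ttn (-0.29, limma adjusted p = 0.0508) and Nebl (-0.23, limma adjusted p = 0.141) were then not called, and Myom2 was called higher (0.51, limma adjusted p = 0.00606). Over all genes, that closure called 6064 higher and 1373 lower, against 2763 and 2766 relative to the median gene. Without the 3 cKO libraries that held Xist, a setting chosen after seeing the data, the 7 genes still fell relative to the median gene.

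**Figure D1:**
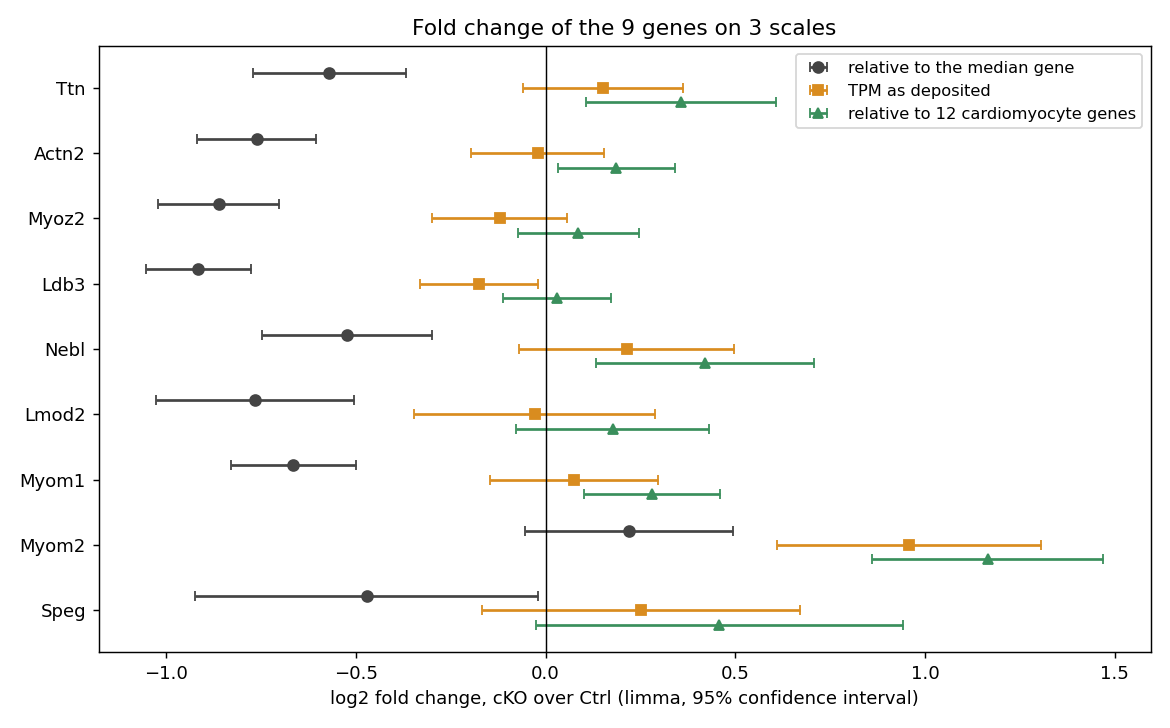
Log2 fold change of each of the 9 genes in cKO over Ctrl hearts on 3 scales, with limma's 95% confidence intervals (n = 5 each). The intervals lie below 0 for 8 genes relative to the median gene, and Myom2 lies to the right of the other 8 genes on each scale.

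Ttn (ENSMUSG00000051747.16, a protein-coding gene on the minus strand, chr2:76703980-76982547) encodes titin, the giant elastic protein that spans each sarcomere from its end to its centre. As deposited, Ttn stood at 38.8, 41.1, 37.4, 33.2 and 30.3 TPM in cKO hearts, against 30.6, 29.1, 33.8, 34.6 and 33.6 TPM in Ctrl hearts. The groups overlapped, with cKO replicates 6 and 7 among the Ctrl values and cKO replicates 1, 3 and 5 above all of them. Scaled, the values were 27.9, 31.1, 27.8, 27.6 and 24.1 in cKO hearts and 42.7, 34.4, 39.8, 43.8 and 47.9 in Ctrl hearts. Every cKO heart was then below every Ctrl heart, as held for 15.5% of all genes tested and for 7 of the 9. The scaled fall was 0.57 on the log2 scale (SE 0.09, limma adjusted p = 0.00043), while the difference as deposited was 0.15 (SE 0.10, limma adjusted p = 0.169). Relative to the 12 cardiomyocyte genes, Ttn rose by 0.36 (SE 0.12, limma adjusted p = 0.0108), a call lost with the median of the 12 genes in place of their mean (0.17) and without the 3 Xist libraries (0.33).

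Actn2 (ENSMUSG00000052374.17, minus strand, chr13:12269426-12340760) encodes alpha-actinin 2, the crosslinker of actin filaments in the Z-disc. It had the highest TPM of the 9 genes in 10 of 10 libraries. As deposited, Actn2 stood at 564, 581, 517, 556 and 572 TPM in cKO hearts, against 502, 570, 615, 599 and 550 TPM in Ctrl hearts. The groups overlapped fully, and the log2 difference was -0.02, with a 95% interval from -0.20 to 0.16. Scaled TPM averaged 430 ± 33.3 in cKO hearts and 728 ± 43.5 in Ctrl hearts (SD, n = 5 each), with no overlap, a log2 fall of 0.76 (SE 0.07, limma adjusted p = 8.03e-06). Actn2 rose by 0.19 relative to the cardiomyocyte genes (limma adjusted p = 0.0257), a call lost without cKO replicate 1, cKO replicate 3, Ctrl replicate 4 or Ctrl replicate 6. It was also lost without the variance trend (0.19), with Ddx3y as a covariate (0.16), with the median of the 12 genes (0.00) and without the 3 Xist libraries (0.15).

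Myoz2 (ENSMUSG00000028116.14, minus strand, chr3:123006206-123035015) encodes myozenin 2, also called calsarcin 1, which binds alpha-actinin and the phosphatase calcineurin at the Z-disc. Its TPM was the second highest of the 9 genes in 10 of 10 libraries. As deposited, Myoz2 stood at 463, 434, 462, 467 and 491 TPM in cKO hearts, against 500, 526, 523, 539 and 436 TPM in Ctrl hearts. All 5 cKO hearts lay below Ctrl replicates 4, 6, 8 and 9, while Ctrl replicate 13 lay among the cKO values. The difference as deposited was -0.12 on the log2 scale (limma adjusted p = 0.191), and it was called without Ctrl replicate 13 (-0.17, limma adjusted p = 0.0477). Scaled TPM averaged 357 ± 29.9 in cKO hearts and 648 ± 39.2 in Ctrl hearts (SD, n = 5 each), with no overlap, a log2 fall of 0.86 (SE 0.07, limma adjusted p = 3.76e-06). Relative to the cardiomyocyte genes the difference was 0.09, with a 95% interval from -0.07 to 0.25.

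Ldb3 (ENSMUSG00000021798.15, minus strand, chr14:34526603-34588682) encodes a PDZ and LIM domain protein, known as Cypher in the mouse, that binds alpha-actinin and helps hold the Z-disc together. As deposited, Ldb3 stood at 194, 199, 183, 195 and 184 TPM in cKO hearts, against 204, 227, 223, 219 and 206 TPM in Ctrl hearts. Every cKO heart was below every Ctrl heart, and this was so for 1.92% of all genes tested. It was the only one of the 9 genes called lower as deposited, by 0.18 on the log2 scale (SE 0.07, limma adjusted p = 0.0371). That call lay near the threshold. When single libraries were left out, it was lost for 8 of the 10 and kept only without Ctrl replicate 4 or Ctrl replicate 13. The difference ran from -0.20 to -0.13 over all alternatives. Scaled TPM averaged 147 ± 10.3 in cKO hearts and 277 ± 12.7 in Ctrl hearts (SD, n = 5 each), and the fall of 0.92 (SE 0.06, limma adjusted p = 9.31e-07) was the steepest of the 9 on that scale. Relative to the cardiomyocyte genes the difference was 0.03, with a 95% interval from -0.11 to 0.17.

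Nebl (ENSMUSG00000053702.17, minus strand, chr2:17343909-17731464) encodes nebulette, the cardiac relative of nebulin, which binds thin filaments near the Z-disc. As deposited, Nebl stood at 143, 149, 155, 112 and 117 TPM in cKO hearts, against 102, 106, 132, 144 and 98.5 TPM in Ctrl hearts. The groups overlapped, and cKO replicates 6 and 7 were the lowest of their group, as they were for Ttn. Scaled, Nebl fell to 103 ± 10.7 in cKO hearts, against 149 ± 21.2 in Ctrl hearts (SD, n = 5 each), a log2 fall of 0.52 (SE 0.10, limma adjusted p = 0.00157). Nebl rose by 0.42 relative to the cardiomyocyte genes (SE 0.13, limma adjusted p = 0.00935), a call lost with Ddx3y as a covariate (0.33), with the median of the 12 genes (0.23) and without the 3 Xist libraries (0.30).

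Lmod2 (ENSMUSG00000029683.8, plus strand, chr6:24597762-24605414) encodes leiomodin 2, which sets thin filament length by adding actin at the pointed end, away from the Z-disc. As deposited, Lmod2 stood at 135, 127, 120, 129 and 157 TPM in cKO hearts, against 123, 163, 160, 156 and 93.3 TPM in Ctrl hearts. The Ctrl hearts spread more widely than the cKO hearts, and Ctrl replicate 13 was below all other libraries. Scaled, all cKO hearts (89.5 to 125) were below all Ctrl hearts (133 to 197), and the log2 fall was 0.77 (SE 0.12, limma adjusted p = 0.000323). Relative to the cardiomyocyte genes the difference was 0.18 (limma adjusted p = 0.17).

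Myom1 (ENSMUSG00000024049.16, plus strand, chr17:71002633-71126856) and Myom2 (ENSMUSG00000031461.5, plus strand, chr8:15057653-15133541) encode myomesin 1 and myomesin 2, related proteins that link titin and myosin in the M-band. As deposited, Myom1 stood at 247, 221, 224, 220 and 240 TPM in cKO hearts, against 182, 269, 216, 233 and 203 TPM in Ctrl hearts. The Ctrl values of Myom1 lay on both sides of the cKO values, and the difference was 0.07 on the log2 scale (limma adjusted p = 0.513). Scaled, Myom1 fell to 177 ± 10.3 in cKO hearts, against 282 ± 27.4 in Ctrl hearts (SD, n = 5 each), a log2 fall of 0.66 (SE 0.08, limma adjusted p = 3.04e-05). Myom1 rose by 0.28 relative to the cardiomyocyte genes (limma adjusted p = 0.00637), a call lost with Ddx3y as a covariate (0.19), with the median of the 12 genes in place of their mean (0.09) and without the 3 Xist libraries (0.16).

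For Myom2, the fold change lay above that of each of the other 8 genes on all 3 scales. As deposited, it stood at 421, 357, 300, 319 and 316 TPM in cKO hearts, against 143, 241, 220, 145 and 146 TPM in Ctrl hearts. Every cKO heart was above every Ctrl heart, which was so for 62.5% of all genes tested, and Ctrl replicates 6 and 8 stood above the other Ctrl hearts. Means were 342 ± 48.7 TPM in cKO hearts and 179 ± 47.4 TPM in Ctrl hearts (SD, n = 5 each), a log2 rise of 0.96 (SE 0.16, limma adjusted p = 0.000127). Scaled, the values were 303, 271, 223, 265 and 250 in cKO hearts and 200, 285, 259, 183 and 209 in Ctrl hearts. The scaled groups overlapped, and the difference of 0.22 (SE 0.13) was not called (limma adjusted p = 0.186). Set against the cardiomyocyte genes, Myom2 rose by 1.17 (SE 0.14, limma adjusted p = 5.18e-06). The rise as deposited was called under all alternatives tried, with log2 values from 0.88 to 1.07.

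**Figure D2:**
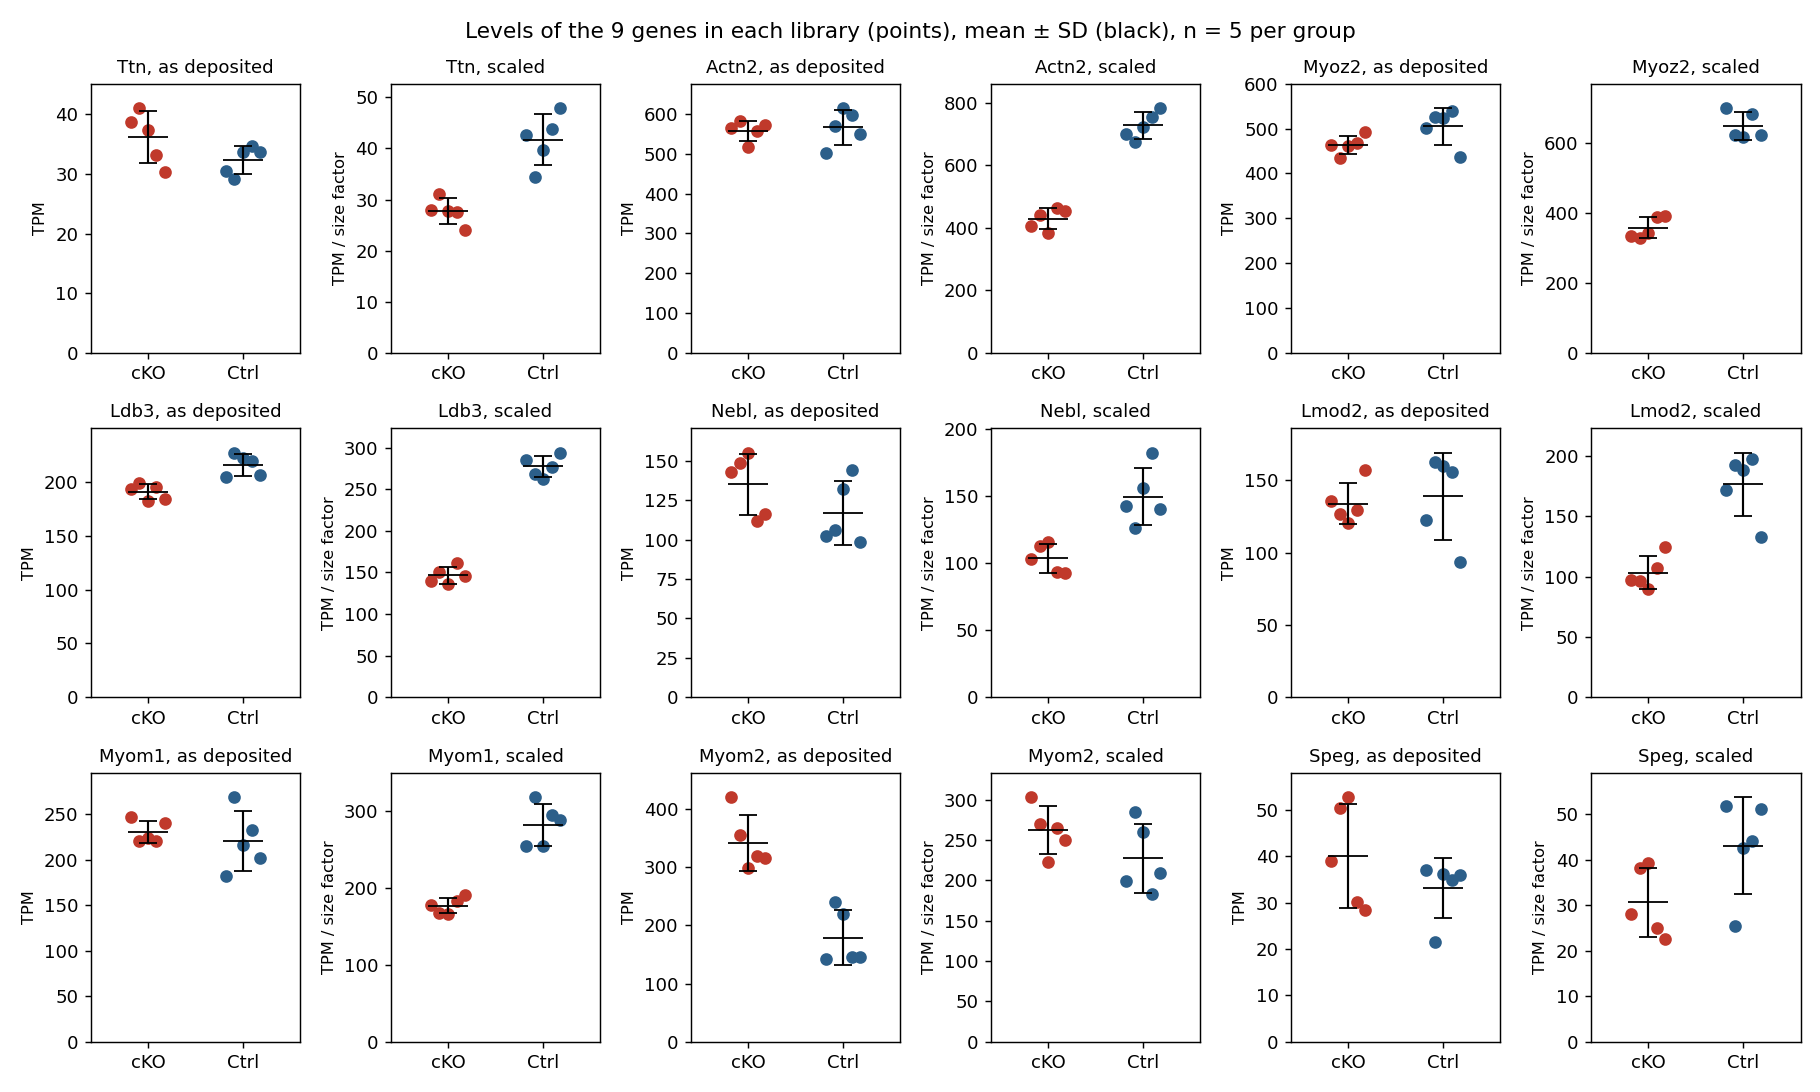
Levels of the 9 genes in each library as TPM and as scaled TPM, cKO left and Ctrl right, with the mean and SD of 5 libraries in black. As deposited, the groups separate for Ldb3 (cKO lower) and Myom2 (cKO higher), and scaled, cKO lies below Ctrl for 7 genes while Myom2 and Speg overlap.

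Speg (ENSMUSG00000026207.17, plus strand, chr1:75375297-75432320) encodes a kinase of striated muscle that, in mice, is found near the junctions of T-tubules with the calcium store. As deposited, Speg stood at 39.0, 50.3, 52.8, 30.2 and 28.5 TPM in cKO hearts, against 37.1, 21.5, 36.2, 34.97 and 35.96 TPM in Ctrl hearts. The groups overlapped, cKO replicates 6 and 7 lay below 4 of the 5 Ctrl hearts, and Ctrl replicate 6 was the lowest of all. Scaled, the means were 30.6 ± 7.63 in cKO hearts and 43.1 ± 10.7 in Ctrl hearts (SD, n = 5 each), a log2 difference of -0.47 (SE 0.21, limma adjusted p = 0.0893). Without Ctrl replicate 6, Speg was called lower, by 0.65 on the log2 scale (limma adjusted p = 0.00868). Speg differed by 0.25 as deposited (limma adjusted p = 0.245) and by 0.46 relative to the cardiomyocyte genes (limma adjusted p = 0.0695). On the last scale Speg was called higher under 4 of 17 alternatives, among them without cKO replicate 6, cKO replicate 7 or Ctrl replicate 4 (0.54 to 0.58).

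Ratios between the 9 genes within a library do not depend on the scale, since the total of the library cancels. Each of the 36 pairs was tested for a difference between groups by exact permutation of the libraries (two-sided), where p cannot go below 0.00794, and p-values were adjusted over the 36 pairs. Of these, 7 pairs differed between cKO and Ctrl hearts at an adjusted p under 0.05, and 5 of the 7 held Myom2. Myom2 is in 8 of the 36 pairs, and 2 of the 28 pairs without it were called. The 5 pairs were those of Myom2 with Ldb3, Myoz2, Lmod2, Actn2 and Myom1, each at the smallest p (adjusted exact p = 0.0408) and with cKO libraries apart from all Ctrl libraries. That adjusted value depends on how many of the 36 pairs reach the smallest p, here 7. Ratios to these genes were not tested for genes outside the 9. Relative to the cardiomyocyte genes, 85.6% of all genes rose, with a median log2 difference of 0.84, against 1.17 for Myom2. Relative to the median gene, Myom2 was not called (0.22, limma adjusted p = 0.186), while its partners in the 5 pairs fell (-0.92 to -0.66). The 5 pairs thus set Myom2 apart from these partners, not from a typical gene.

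TPM of Myom2 was 1.71, 1.61, 1.34, 1.45 and 1.31 times that of Myom1 in cKO hearts, against 0.784, 0.894, 1.02, 0.622 and 0.723 times in Ctrl hearts. Myom2 thus exceeded its relative in every cKO heart and in 1 of the 5 Ctrl hearts. The ratio averaged 1.48 ± 0.173 in cKO hearts and 0.809 ± 0.154 in Ctrl hearts (SD, n = 5 each). The ratio of Myom2 to Ldb3 averaged 1.79 ± 0.221 in cKO hearts and 0.824 ± 0.186 in Ctrl hearts, the widest gap of the 36 pairs on the log2 scale. Ratios of Myom2 averaged 0.741 ± 0.119 in cKO and 0.354 ± 0.0829 in Ctrl hearts to Myoz2, 0.613 ± 0.0778 in cKO and 0.315 ± 0.0740 in Ctrl hearts to Actn2, and 2.58 ± 0.412 in cKO and 1.30 ± 0.257 in Ctrl hearts to Lmod2. All of these groups lay apart. The pairs of Myom2 with Ttn and with Nebl pointed the same way without being called (exact permutation p = 0.0159 each, adjusted 0.0635), and the pair with Speg gave an exact permutation p of 0.103 (adjusted 0.248). After any 1 cKO library was left out no pair was called, with the 5 log2 differences between 0.83 and 1.17 in size and adjusted exact permutation p-values from 0.0571 to 0.0816. Even a pair at the smallest p is called only if enough other pairs reach it. The lost calls alone thus do not show weaker ratios.

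**Figure D3:**
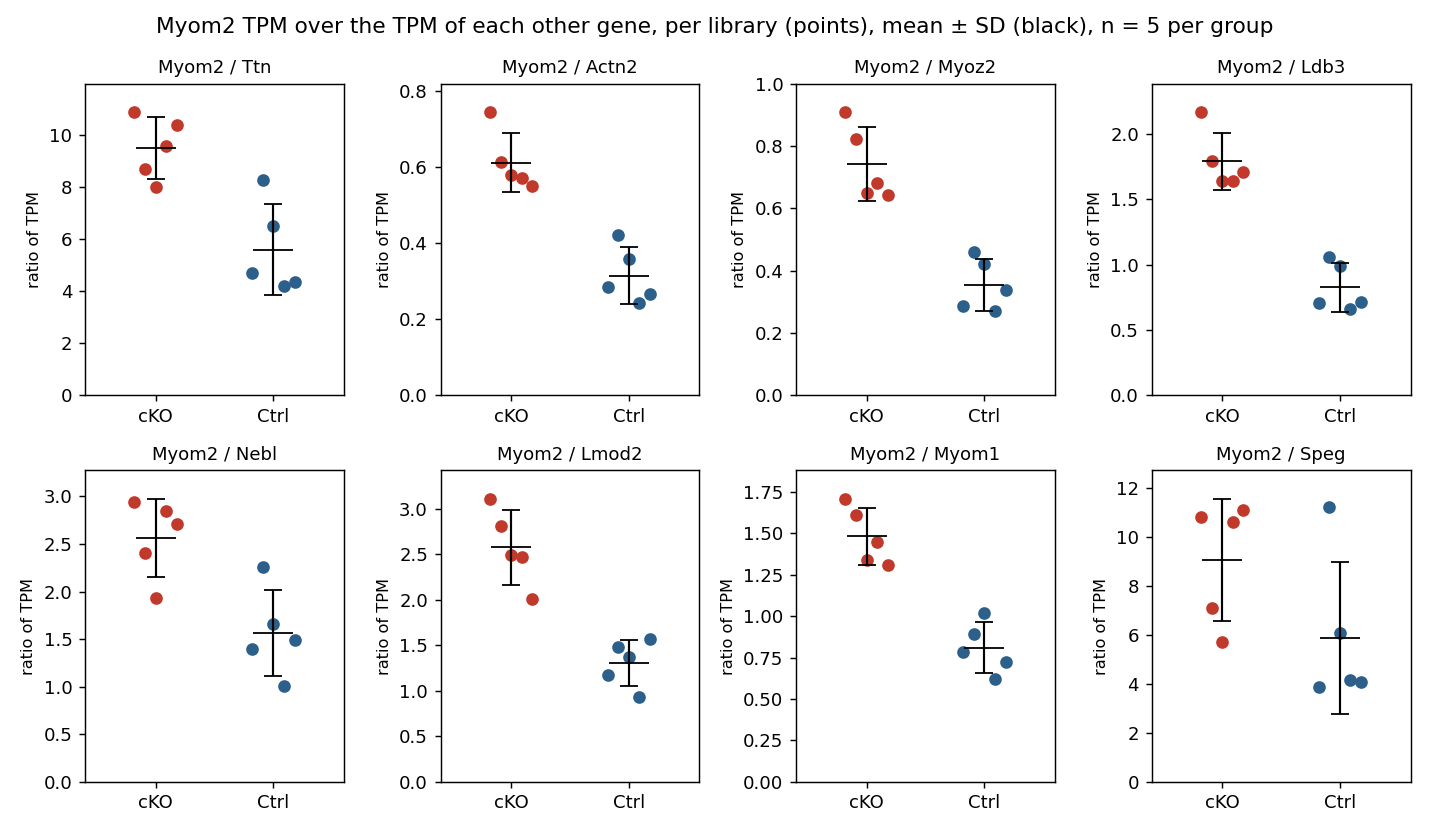
TPM of Myom2 over TPM of each of the other 8 genes in each library, cKO left and Ctrl right, with mean and SD of 5 libraries in black. For Myom1 the cKO libraries lie between 1.31 and 1.71 and the Ctrl libraries between 0.622 and 1.02, while for Speg the groups overlap.

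Among the 28 pairs without Myom2, the pairs called were Actn2 over Ldb3, with a log2 difference of 0.16, and Ttn over Ldb3, with 0.33 (adjusted exact permutation p = 0.0408 each). Both name Ldb3, the gene with the steepest scaled fall. The largest difference of any pair without Myom2 was 0.43 on the log2 scale, and the smallest with Myom2 was 0.71. Ttn over Actn2 was 0.0649 ± 0.00824 in cKO hearts and 0.0572 ± 0.00422 in Ctrl hearts (SD, n = 5 each), a log2 difference of 0.17 (exact permutation p = 0.111, adjusted 0.25).

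As a share of the summed TPM of the 9 genes, Myom2 took 14.6% to 18.8% in cKO hearts, against 6.89% to 11.2% in Ctrl hearts. Actn2 took 26.2% ± 0.954 in cKO hearts and 28.3% ± 1.49 in Ctrl hearts (SD, n = 5 each), and Ttn took 1.70% in cKO hearts and 1.62% in Ctrl hearts on average. These levels are per length, as TPM is, and the lengths that the authors used are not known here. In the order of levels, Myom2 was the third of the 9 in every cKO heart and between rank 4 and rank 6 in Ctrl hearts. Ldb3 exceeded Myom2 in none of the 5 cKO hearts and in 4 of the 5 Ctrl hearts. Neighbours low in the order were not separated: Nebl exceeded Lmod2 in 3 cKO and 1 Ctrl hearts, and Ttn exceeded Speg in 2 cKO and 1 Ctrl hearts. The summed TPM of the 9 genes ran from 2051 to 2245 in cKO hearts and from 1803 to 2159 in Ctrl hearts, and the scaled sum from 1523 to 1713 in cKO hearts and from 2545 to 2661 in Ctrl hearts.

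Myom2 and several Z-disc genes are also expressed in skeletal muscle, and atrial markers differed between the groups. Of 12 skeletal muscle markers, 6 passed the minimum, of which 1 fell relative to the median gene, 1 rose as deposited and 4 rose relative to the cardiomyocyte genes (backgrounds 20.8%, 76.5% and 85.6%). The summed TPM of the 12 was 26.4 to 64.4 in cKO hearts and 16.2 to 36.3 in Ctrl hearts. Tnni2, the fast troponin I, had the highest mean of the 12, at 10.01 to 44.6 TPM in cKO hearts and 3.02 to 20.2 TPM in Ctrl hearts. Tnnt3, the fast troponin T, was the marker that rose as deposited, by 0.35 on the log2 scale (limma adjusted p = 0.042). Myog and Pvalb reached at most 0.114 and 0.0901 TPM in cKO hearts. Of 4 atrial markers tested, 3 rose relative to the median gene (background 20.8%) and all 4 rose as deposited (background 76.5%), with Myl4 the one not called relative to the median gene. Nppa, which ventricles also express under stress, ran from 1780 to 4216 TPM in cKO hearts and from 53.2 to 151 TPM in Ctrl hearts, nearly all of the sum of the list. The other markers were lower: Dkk3 ran from 30.7 to 51.9 TPM in cKO hearts and from 4.14 to 6.70 TPM in Ctrl hearts, and Myl7 from 3.50 to 51.6 TPM in cKO hearts and from 0.591 to 1.57 TPM in Ctrl hearts. Sln and Bmp10 reached at most 1.01 and 0.0544 TPM in cKO hearts. The cardiomyocyte markers summed to 29894 to 33564 TPM in cKO hearts and to 29164 to 37081 TPM in Ctrl hearts. Whether skeletal or atrial transcripts have a part in the values of Myom2 was not tested. Without the 3 cKO libraries that held Xist, Myom2 was called higher as deposited by 0.95 (limma adjusted p = 0.0041).

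Promoter sequences are shown for 5 of the genes, Ttn, Myoz2, Ldb3, Myom1 and Speg, of which the first 4 fell together relative to the median gene. They are RefSeq sequences on GRCm38.p6, from 250 bases before to 50 bases after an annotated transcript start, written 5′ to 3′ in the direction of the gene. Capitals mark a match to the binding motif of MEF2 (Ttn, Myoz2, Speg) or to the CArG box bound by SRF (Ldb3, Myom1), both regulators of muscle genes.
Ttn, minus strand, chr2:76982498-76982797: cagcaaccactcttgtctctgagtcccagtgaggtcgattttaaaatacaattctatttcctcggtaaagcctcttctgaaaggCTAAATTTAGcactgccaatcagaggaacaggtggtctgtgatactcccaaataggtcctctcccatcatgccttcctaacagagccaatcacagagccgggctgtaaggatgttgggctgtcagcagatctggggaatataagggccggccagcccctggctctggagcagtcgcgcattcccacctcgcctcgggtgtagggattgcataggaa
Myoz2, minus strand, chr3:123034938-123035237: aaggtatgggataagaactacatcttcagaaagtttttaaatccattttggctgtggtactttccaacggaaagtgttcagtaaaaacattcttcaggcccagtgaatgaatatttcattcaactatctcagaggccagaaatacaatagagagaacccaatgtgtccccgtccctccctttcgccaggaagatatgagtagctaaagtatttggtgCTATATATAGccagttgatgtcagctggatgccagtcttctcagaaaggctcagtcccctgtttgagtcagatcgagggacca
Ldb3, minus strand, chr14:34588632-34588931: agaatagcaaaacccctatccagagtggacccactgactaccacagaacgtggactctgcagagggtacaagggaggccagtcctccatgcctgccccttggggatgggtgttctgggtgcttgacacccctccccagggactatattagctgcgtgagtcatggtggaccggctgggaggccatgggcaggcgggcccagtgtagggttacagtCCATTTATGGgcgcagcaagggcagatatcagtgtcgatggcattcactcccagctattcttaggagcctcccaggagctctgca
Myom1, plus strand, chr17:71019307-71019606: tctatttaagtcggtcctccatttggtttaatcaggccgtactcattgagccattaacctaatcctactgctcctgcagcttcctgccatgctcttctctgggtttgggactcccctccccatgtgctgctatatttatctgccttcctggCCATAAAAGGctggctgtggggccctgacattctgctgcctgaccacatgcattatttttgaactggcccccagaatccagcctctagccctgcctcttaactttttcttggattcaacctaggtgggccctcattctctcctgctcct
Speg, plus strand, chr1:75375047-75375346: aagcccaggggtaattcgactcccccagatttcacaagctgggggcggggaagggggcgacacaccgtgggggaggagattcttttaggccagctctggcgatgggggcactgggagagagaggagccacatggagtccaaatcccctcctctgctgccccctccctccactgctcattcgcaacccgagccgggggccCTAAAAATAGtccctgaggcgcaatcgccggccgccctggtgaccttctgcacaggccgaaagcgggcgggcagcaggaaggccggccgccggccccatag
The match began 166 bases before the start in Ttn, 33 in Myoz2, 35 in Ldb3, 99 in Myom1 and 51 in Speg. The Myom1 window lies inside the gene, which begins at chr17:71002633, so it belongs to a later annotated start.

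RefSeq windows were matched for 8 of the 9 genes, 15 windows in all, and Myom2 is named only. Both strands were searched, and a match is a description, not a site of binding. The MEF2 motif was in 3 of the 15 windows, against 3.19% of all 32851 windows in the table. The CArG box was in 4 of the 15, in Ldb3, Myom1 and Nebl, against 1.63% of all, and 2 of these are overlapping windows of Ldb3 that share 1 match. The MCAT motif CATTCC was in 4 windows (14.7% of all), the GATA motif GATAA in 4 (25.4% of all) and the E-box CANNTG in 12 (72.3% of all). The windows with MEF2 or CArG matches include Speg, which was not called, and windows of Actn2 and Lmod2, which fell, held neither.

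Genes of the same structures moved in both directions. Of 29 other Z-disc genes tested, 8 rose, 10 fell and 11 were not called relative to the median gene (20.8% of all genes in each direction), with a median of -0.02. As deposited 20 of the 29 rose and 5 fell, where 76.5% of all genes rose and 3.46% fell. Ankrd1, a stretch-responsive protein bound to titin in the I-band, averaged 2344 ± 378 TPM in cKO hearts and 294 ± 68.8 TPM in Ctrl hearts (SD, n = 5 each), a scaled log2 rise of 2.26. The PDZ and LIM proteins Pdlim7 (1.54) and Pdlim3 (1.42) also rose. Both belong to the wider family of Ldb3, which fell. Tcap, the telethonin that caps titin in the Z-disc, averaged 127 ± 35.03 TPM in cKO hearts and 242 ± 21.5 TPM in Ctrl hearts and fell by 1.70 scaled. Mypn (-1.19), which binds nebulin family proteins and alpha-actinin, and Synpo2 (-1.19), Palld (-0.74) and Pdlim5 (-0.64), which bind actin or alpha-actinin, fell as well. Tcap, Mypn and Synpo2 were called lower on all 3 scales and Ankrd1, Pdlim7 and Pdlim3 higher on all 3, while Palld (-0.01) and Pdlim5 (0.10) were not called as deposited and rose relative to the cardiomyocyte genes. Each of these 8 genes had a limma adjusted p of 1.25e-05 or less relative to the median gene. The 8 that rose became 15 when TPM was closed again without mitochondrially encoded genes, and 4 without the 3 libraries with Xist or with Ddx3y as a covariate.

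Of 12 other M-band genes tested, 4 rose, 7 fell and 1 was not called relative to the median gene (20.8% of all genes in each direction), with a median of -0.44. As deposited 7 rose (background 76.5%) and 2 fell (background 3.46%). Those that rose with the smallest p were Sqstm1, the autophagy receptor p62, which averaged 885 ± 152 TPM in cKO hearts and 81.1 ± 8.52 TPM in Ctrl hearts (2.68), and the ubiquitin ligases Trim54 (126 ± 17.2 TPM in cKO, 15.1 ± 2.24 TPM in Ctrl hearts, 2.26) and Trim63 (0.69). All 3 act in protein turnover, and Sqstm1 and Trim63 are linked to the part of titin near its kinase domain. Among those that fell were Ckm, the muscle creatine kinase bound to the M-band (488 ± 110 TPM in cKO, 982 ± 161 TPM in Ctrl hearts, -1.76), Cmya5 (-1.72), the methyltransferase and chaperone partner Smyd1 (-0.90) and Fsd2 (-0.64). Each of these 7 genes had a limma adjusted p of 3.07e-05 or less. Ckm and Cmya5 were called lower on all 3 scales and Sqstm1, Trim54 and Trim63 higher on all 3, while Smyd1 and Fsd2 were not called as deposited. Fsd2 was called higher relative to the cardiomyocyte genes (0.29).

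Of 6 other thin filament end genes tested, 3 fell relative to the median gene (background 20.8%). None rose by limma at an adjusted or unadjusted p (background 20.8% at an adjusted p), while as deposited 2 rose and 1 fell (backgrounds 76.5% and 3.46%). Tmod1, the tropomodulin that caps pointed ends and competes with Lmod2, averaged 99.0 ± 1.45 TPM in cKO hearts and 100.1 ± 10.5 TPM in Ctrl hearts and fell by 0.74 scaled (limma adjusted p = 2.14e-06), close to the 0.77 of Lmod2. Lmod3 (-0.76) and Tmod4 (-1.05) fell, with limma adjusted p-values of 0.000515 and 0.000311, and Tmod3 did not pass the test (-0.09). As deposited Tmod1 (-0.01) and Lmod3 (-0.04) were not called, Tmod4 was called lower (-0.54) and Tmod3 higher (0.63). Relative to the cardiomyocyte genes, Tmod1 (0.196) and Tmod3 (0.835) were called higher. Of 10 splicing factors that act on titin or other sarcomere transcripts, 3 fell relative to the median gene (background 20.8%). None rose by limma at an adjusted or unadjusted p (background 20.8% at an adjusted p). As deposited 8 of the 10 rose, near the 76.5% of all genes, and 1 fell. Those that fell were Rbfox1 (3.18 ± 0.569 TPM in cKO, 8.20 ± 1.16 TPM in Ctrl hearts, -1.74), Rbm24 (-0.78) and Srsf10 (-0.35), with limma adjusted p-values of 0.00735 or less. Rbfox1 was called lower on all 3 scales, and Srsf10 was called higher as deposited (0.38). Rbm24 was not called as deposited (-0.05) or relative to the cardiomyocyte genes (0.16). The call of Srsf10 was lost with Ddx3y as a covariate (-0.28, limma adjusted p = 0.0664), without the 3 Xist libraries (-0.24) and without mitochondrially encoded genes (-0.06). Rbm20, the regulator of titin splicing, differed by -0.26 (limma adjusted p = 0.0578), and it was called higher as deposited by 0.47 (83.4 ± 12.97 TPM in cKO, 59.4 ± 3.32 TPM in Ctrl hearts). Gene-level TPM does not show isoforms of titin, so their proportions were not analysed here.

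Myoz2 binds calcineurin, and of 11 calcineurin pathway genes 3 rose, 2 fell and 6 were not called relative to the median gene (20.8% of all genes in each direction). As deposited 9 of the 11 rose, near the 76.5% of all genes. Rcan1, an inhibitor of calcineurin that is itself a target of the pathway, rose by 0.59 (86.1 ± 15.2 TPM in cKO, 33.8 ± 3.78 TPM in Ctrl hearts, limma adjusted p = 0.000265), and the transcription factor Nfatc3 rose by 0.34 (limma adjusted p = 0.00721), and both were called higher on all 3 scales. Rcan2 (-0.91) and the catalytic subunit Ppp3cc (-0.44) fell, with limma adjusted p-values of 1.69e-06 and 0.00172, and neither was called as deposited. Ppp3cc was called higher relative to the cardiomyocyte genes (0.43). Ppp3cc (-0.18) and Mef2a (-0.19) were not called when mitochondrially encoded genes were left out, and Nfatc3 (0.31) was not called without the 3 Xist libraries. Of 5 genes for partners of Speg, 4 fell relative to the median gene (background 20.8%), while as deposited 2 fell and 1 rose, Bin1 (0.61, limma adjusted p = 0.000648), which shapes T-tubule membranes. Those that fell relative to the median gene were the calcium release channel Ryr2 (-1.69), the calcium pump Atp2a2 (1111 TPM in cKO, 1632 TPM in Ctrl hearts, -1.30), the junction protein Jph2 (-0.88) and the lipid phosphatase Mtm1 (-0.52), with limma adjusted p-values of 9.45e-05 or less. Ryr2 and Atp2a2 were called lower on all 3 scales, and Jph2 and Mtm1 were not called as deposited. Mtm1 was called higher relative to the cardiomyocyte genes (0.33). Ryr2 is also 1 of the 12 cardiomyocyte genes used as a scale. Of 13 cardiac transcription factors, 5 fell and 1 rose relative to the median gene, where 20.8% of all genes moved in each direction. Among those that fell were Mef2a (-0.47), Srf (-0.56) and Hand2 (-0.61), and the 1 that rose was Gata4 (90.2 TPM in cKO, 42.7 TPM in Ctrl hearts, 0.33), with limma adjusted p-values of 0.00122 or less. As deposited 10 of the 13 rose, near the 76.5% of all genes, Gata4 was called higher on all 3 scales, and Mef2a turned to a rise of 0.26. Srf (0.16) and Hand2 (0.10) were not called as deposited, and both were called higher relative to the cardiomyocyte genes (0.36 and 0.31).

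**Figure D4:**
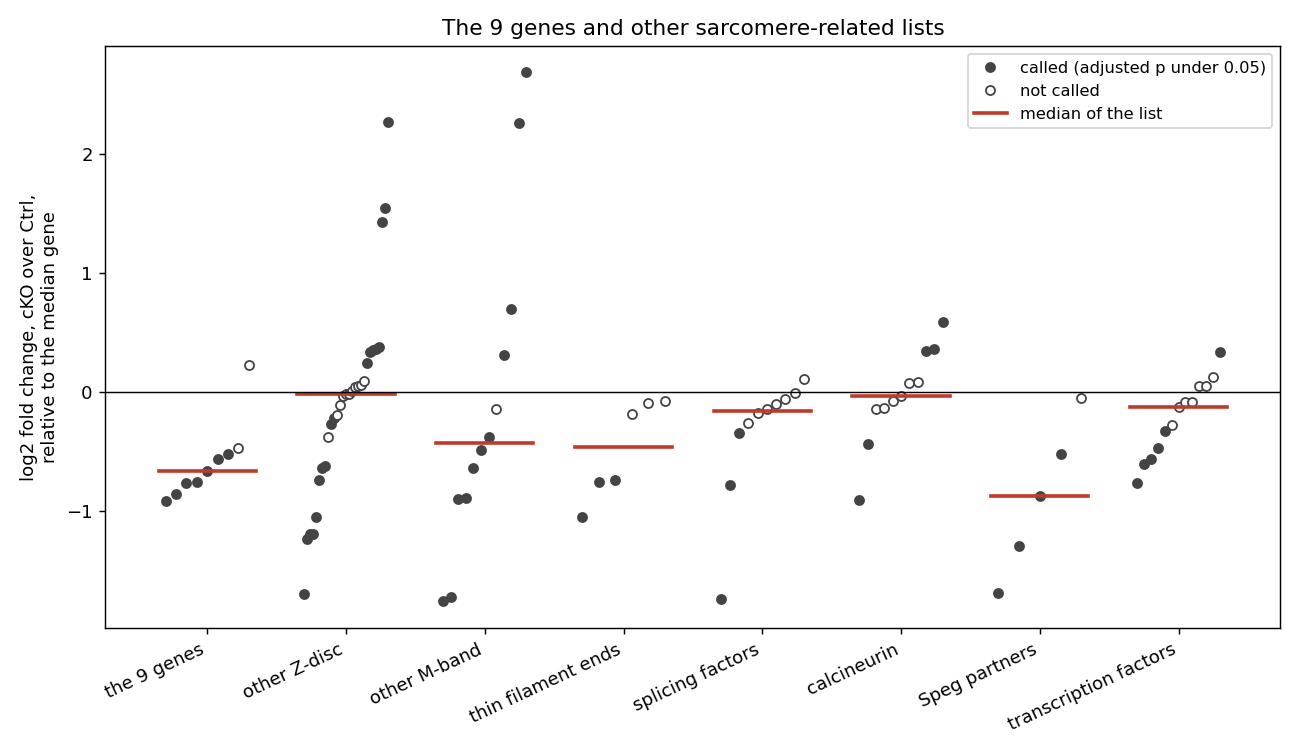
Log2 fold change in cKO over Ctrl hearts relative to the median gene for the 9 genes and for 7 lists of related genes, filled where called by limma. The 9 genes have a median of -0.66 and span less than the other Z-disc genes, which run from Tcap at -1.70 to Ankrd1 at 2.26.

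Within the groups, the genes whose scaled values varied most like Ttn over the 10 libraries, among 8732 genes with a mean of at least 5 TPM, were Leng8, Ehmt2, Hjurp, AI480526 and Med12. Their Pearson correlations with Ttn, after the mean of each group was subtracted, were 0.977, 0.969, 0.969, 0.962 and 0.954. All libraries share the same closure and size factors, and the values are a description only.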

How the data were processed

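Total RNA from whole hearts was sequenced, and groups and replicate numbers were read from the sample titles. The authors deposited gene values in TPM, which divide reads by gene length and close each library to 1000000. The submitters' processing notes name build mm10 and, without their roles, the tools DESeq2 1.22.2, HTSeq 0.11.2, STAR 2.7.1, Trimmomatic 0.32, Picard 1.96, FastQC 0.11.7 and bcl2fastq. Gene lengths, annotation release and strand setting are not given in the sources used here, and overlapping antisense transcripts cannot be told apart from a gene's own. TPM keeps no depth, so the reads behind each value are unknown. Gene positions come from GENCODE M21 (GRCm38), and 51460 of 55858 IDs (92.1%) matched without their version.

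Groups were compared on log2(TPM + 1), a scale that understates changes of low genes, with limma 3.58.1 in R 4.3.3 (eBayes with trend, two-sided) over 13282 genes with at least 1 TPM in at least 5 libraries. Calls were made at an adjusted p under 0.05 (Benjamini-Hochberg, over all genes tested). Size factors were medians of ratios over 16393 genes above 0 in every library. The third scale subtracted the mean log2(TPM + 1) of Tnnt2, Tnni3, Tnnc1, Mybpc3, Myl2, Myl3, Tpm1, Actc1, Myh6, Pln, Ryr2 and Cox6a2. The fit was tested on simulated data with the same noise for every gene and no closure or shift in the mitochondrial share. That test thus cannot bear on the choice of scale. Ratios, shares and figures were made with Python 3.11.15, scipy 1.17.1 and matplotlib 3.10.9.

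The 9 genes and the lists were chosen with earlier results of these data known. From each list up to 4 genes with the smallest adjusted p were named, up to 8 for Z-disc and M-band genes, and 1 gene that this rule names is not reported here. Of the ratios, the 5 largest, Myom1 with Myom2 and Ttn with Actn2 were named by rule, and Actn2 with Ldb3, Ttn with Ldb3 and the other Myom2 pairs after their values were seen, as were Bin1 and the single marker genes. Alternatives were another pseudocount, no filter, other size factors, no variance trend, library weights, Ddx3y as a covariate, TPM closed again without mitochondrially encoded genes, and fits without single libraries. Fits without the Xist libraries, and the alternatives for the lists and for filter, trend, weights and covariate on the third scale, were chosen after seeing the data. Groups were of 5 animals each, and p-values measure the spread between them.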

Additional observations from a re-analysis of the deposited data

Results flagged for a closer look

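Of 36 sets of 5 values (9 genes, 2 scales, 2 groups), 1 held a library far from the rest. Speg stood at 21.5 TPM as deposited in Ctrl replicate 6, while the other Ctrl hearts lay between 34.97 and 37.1 TPM. The gap to its nearest neighbour was 0.861 of the range of the group, above the 95% critical value of 0.71 for 5 values. Chance alone gives a value above 0.71 in about 1 in 20 sets.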

How the results depend on the processing

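When TPM was closed again without mitochondrially encoded genes, that closure took the place of the size factors, so values were not relative to the median gene. On that scale 6064 genes rose and 1373 fell, and 1 of the 9 genes (Myom2) rose. Under that setting Tmod3 (0.20) and Rbm20 (0.03) turned sign, 15 other Z-disc, 3 splicing, 5 calcineurin and 3 transcription factor genes rose, and 1 calcineurin and 3 transcription factor genes fell. Relative to the median gene, 1673 genes rose and 1804 fell without the 3 Xist libraries (chosen after seeing the data), and 4 other Z-disc genes and 1 calcineurin gene rose. Without these libraries Myoz2 turned to -0.02 relative to the cardiomyocyte genes. With 2 cKO libraries left an exact permutation p cannot go below 0.0476 before adjustment, so the 0 pairs called there say nothing about the ratios, and Ldb3 over Myom2 was -1.08. A Ddx3y covariate left 4 other Z-disc genes higher. Splicing genes called lower numbered 3 to 5 without single libraries and 2 with the Ddx3y covariate.

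As deposited, genes of the 9 called lower numbered 0 without the variance trend, with the Ddx3y covariate or without the Xist libraries, 2 with library weights (Ldb3 and Myoz2), and 0 to 2 when single libraries were left out. Values near 0 changed sign: Actn2 was 0.01 with the Ddx3y covariate and without the Xist libraries, and without single libraries Actn2 ran from -0.06 to 0.01 and Lmod2 from -0.16 to 0.04. Relative to the cardiomyocyte genes, 21809 genes rose without a filter, a count that takes in genes near 0 TPM. Such genes take their value on this scale from the 12 cardiomyocyte genes alone, so the count says little about them. With the median of the 12 genes in place of their mean, 459 genes fell. That median left 1 of the 9 higher and gave Actn2 0.00, Myoz2 -0.10, Ldb3 -0.16 and Lmod2 -0.01. The Ddx3y covariate left 2 of the 9 higher and the Xist setting 1. Pairs called ranged from 0 to 10 when single libraries were left out, and these calls depend on how many pairs reach the smallest exact permutation p. Why the other values moved was not tested.

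Of the values of single genes and pairs, 1090 kept direction and call, 64 lost the call, 10 gained one and 15 turned sign. TPM holds no read depth, so counting error is unknown. No paired analysis was possible because the groups share only 1 replicate number.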
